A study of Mus musculus with 8 samples.

Results

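The core circadian clock loop of mouse liver is described here through 10 genes: the activators *Arntl* (also called Bmal1), *Clock* and *Npas2*, the repressors *Per1*, *Per2*, *Per3*, *Cry1* and *Cry2*, and the nuclear receptors *Nr1d1* and *Nr1d2* (REV-ERBα and REV-ERBβ). The genes were chosen by name, out of 22907 genes named on the array, and every non-control probe whose RefSeq transcript belongs to them was read. This gave 18 probes, of which 14, in 9 genes, were bright enough to be tested. RNA came from frozen livers of males of the C57BL/6 strain aged 10 weeks, with 4 animals of the *Agpat3* WT genotype and 4 of the *Agpat3* KO genotype, and 1 Cy3-labeled Agilent array was used per mouse. AGPAT3 is an acyltransferase that builds phospholipids containing docosahexaenoic acid, and the study asked how its loss changes the liver. The labels name no Cre driver for this knockout, and the study refers to the line as a global knockout. The hour of sampling, the lighting schedule and the feeding state at death are not given in the sources used here.

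The clock is a negative feedback loop of transcription. ARNTL pairs with CLOCK, or with its relative NPAS2, and binds E-boxes to switch on the *Per*, *Cry*, *Nr1d1*, *Nr1d2* and *Dbp* genes. PER and CRY proteins accumulate, enter the nucleus and block the pair, while the REV-ERB proteins repress *Arntl*, *Clock*, *Npas2*, *Cry1* and *Nfil3* through ROR elements. DBP, TEF and HLF activate and NFIL3 represses through D-boxes, which adds a further layer to genes such as *Per3*. In liver, transcripts of *Arntl* and *Npas2* are known to peak at the opposite part of the day from those of *Nr1d1*, *Dbp* and *Per3*, so livers taken at different hours, or from mice with shifted meals, carry different mixtures.

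Promoter stretches of 4 clock genes show the letters through which these proteins act. They were taken from RefSeq windows of GRCm38.p6 that run from 250 bases before to 50 bases after each annotated start, are written 5′ to 3′ on the strand of the gene, and end before the start. Capitals mark matches on either strand to the E-box CACGTG (*Per1*, *Cry1*, *Ciart*) or the D-box TTATGTAA (*Per3*). *Per1* and *Cry1* are shown as the members with an E-box in the window, *Per3* as the member with D-boxes, and *Ciart*, which encodes a further repressor of the CLOCK and ARNTL pair, as a clock gene that varied widely between the mice.
Per1 (chr11:69098743-69098828, + strand): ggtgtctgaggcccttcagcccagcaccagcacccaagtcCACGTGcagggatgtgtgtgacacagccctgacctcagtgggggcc
Cry1 (chr10:85185069-85185154, - strand): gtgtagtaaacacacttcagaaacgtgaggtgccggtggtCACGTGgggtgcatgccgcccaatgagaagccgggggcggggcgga
Per3 (chr4:151044776-151044910, - strand): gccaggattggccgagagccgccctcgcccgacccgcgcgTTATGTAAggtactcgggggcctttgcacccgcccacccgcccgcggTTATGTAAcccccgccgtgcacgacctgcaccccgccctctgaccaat
Ciart (chr3:95882229-95882384, - strand): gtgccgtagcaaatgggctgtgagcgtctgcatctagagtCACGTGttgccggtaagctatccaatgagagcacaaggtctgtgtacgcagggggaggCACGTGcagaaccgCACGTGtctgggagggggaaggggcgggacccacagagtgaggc

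The E-box of *Per1* began 166 bases and that of *Cry1* 60 bases before the start. *Ciart* held 3 E-boxes, 44, 58 and 116 bases before its start, and *Per3* held 2 D-boxes, 158 and 205 bases before its own. Of the 32851 windows in the table, 7.15% held CACGTG and 0.938% held TTATGTAA. A second D-box form, TTACGTAA, was in 0.119% of the windows and in none of those of the clock genes searched. The E-box variant CACGTT, found in 4.68% of all windows, was read on the opposite strand 28 bases before the start of *Nr1d1*, 166 before that of *Cry2* and 79 before that of *Cry1*. Of the ROR element cores TAGGTCA (2.61% of windows) and TGGGTCA (3.98%), only the first was found, in *Arntl*, 30 bases downstream of the start. The windows of *Clock*, *Npas2*, *Nr1d2* and *Dbp* held none of these letters, and *Per2* was not searched. A match describes the letters only.

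All signals below are log2 values of the processed spot intensity over the upper quartile of the same array (its 75th percentile), so that 0 is the brightness of that quartile. The 8 arrays lay on 1 slide, WT in row 1 and KO in row 2, so genotype and slide row cannot be told apart, and mice with the same replicate number lay in the same column. Between 29882 and 31884 of 56605 probes were well above background on an array, local background had a median of 27 to 32 intensity units, and no spot was saturated. The targeted gene bore out the labels, since its brighter probe ranged from 5.65 to 5.88 over WT livers and from -0.58 to 0.02 over KO livers. The summed log2 signal of 6 hepatocyte markers ran from 11.91 to 12.10 over WT livers and from 11.98 to 12.06 over KO livers. None of the hepatocyte, leukocyte, stellate, endothelial, bile duct, pancreatic or erythroid marker genes tested was called, against 1.76% of all tested genes. At that share, 0 calls in such short lists say little about cell composition. *Krt7*, *Epcam*, *Cd79a*, *Prss1*, *Cpa1* and *Pnlip* were too dim to be tested. The sum of 5 stellate markers was 4.39 in WT replicate 2, against 3.51 to 3.65 in the other mice. *Cela1*, a pancreatic marker, was lower in every KO mouse than in any WT mouse, a difference of -0.54 (limma adjusted p = 0.292). No other marker gene tested separated the genotypes.

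In the main comparison the 9 tested clock genes showed no called difference between *Agpat3* KO and WT liver. Calls required a difference of more than 1.5-fold together with a limma p, adjusted by Benjamini-Hochberg over all 29065 tested probes, below 0.2. The cutoffs of fold and p are those of the study's volcano plot, whose legend names no adjustment of its p. Of the 14 tested clock probes 0 were called, against 1.67% of all tested probes, and 0 had an unadjusted p under 0.05, against 13.3% of all. With the unadjusted p held to 0.2 and the same fold, 1 of the 14 passed, the brightest *Per3* probe, against 3.39% of all. In 0 of the 14 did the 4 KO mice lie wholly above or below the 4 WT mice, which happened for 8.85% of all tested probes. The median difference of the 9 genes at their brightest probe was 0.13, against -0.03 over all 14061 tested genes. The differences ran from -0.28 for *Nr1d1* to 0.70 for *Per3*, and the 95% confidence intervals of 5 of the 9 genes (*Arntl*, *Per1*, *Per2*, *Per3* and *Nr1d1*) reached past a 1.5-fold change, so a change of that size lies within their intervals. In whole liver, fewer cells of a type and less RNA per cell cannot be told apart.

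**Figure D1:**
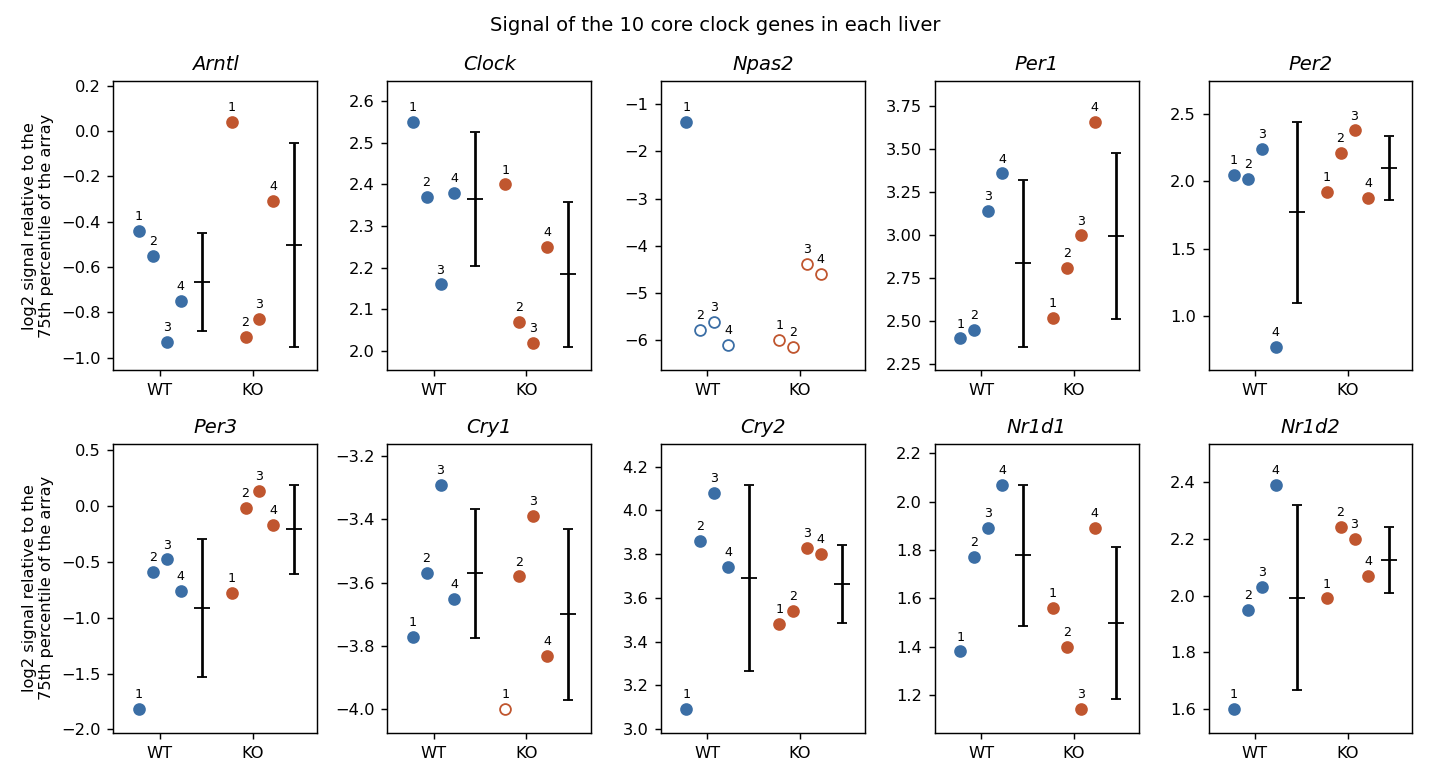
Log2 signal over the upper quartile of the array (vertical axis, own range for each gene) of the 10 clock genes in WT (blue) and KO (orange) livers, at the brightest tested probe or, for *Npas2*, the sole probe. Numbers are replicates, open circles are spots not well above background, and bars are the mean ± SD of 4 mice (not drawn for *Npas2*). The genotypes overlap for every gene, and replicate 1 is lowest or highest of its genotype in both genotypes for 7 of the 9 genes tested.

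*Arntl*, the partner without which the loop stops, gave -0.44, -0.55, -0.93 and -0.75 in WT replicates 1 to 4 and 0.04, -0.91, -0.83 and -0.31 in KO replicates 1 to 4. The highest liver was KO replicate 1, and the other KO mice lay within or near the WT range. The mean was -0.67 ± 0.22 (SD, n = 4) in WT and -0.50 ± 0.45 (SD, n = 4) in KO, a difference of 0.16 with a standard error of 0.22 (limma adjusted p = 0.800). The 2 dimmer probes of *Arntl* differed by 0.06 and 0.05.

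*Clock*, the DNA-binding partner of *Arntl*, gave 2.55, 2.37, 2.16 and 2.38 in WT and 2.40, 2.07, 2.02 and 2.25 in KO. It was the steadiest member, with a range over the 8 livers of 1.45-fold. Its difference was -0.18 (standard error 0.11, limma adjusted p = 0.546), and its second tested probe gave -0.19, with a confidence interval from -0.43 to 0.05. A further *Clock* probe was below the well-above-background mark on all 8 arrays.

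*Npas2*, which can take the place of *Clock*, was well above background in 1 of the 8 livers. Its signal was -1.38 in WT replicate 1, and the other 7 mice ranged from -6.13 to -4.39. With those mice set at the dimmest signal that counted as well above background on their arrays, WT replicate 1 was at least 7.10-fold above their mean, and at least 6.15-fold above each of them. The probe did not pass the filter and has no genotype test.

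Among the period genes, which encode the slowly accumulating repressors, *Per3* had the largest difference. It gave -1.82, -0.59, -0.48 and -0.76 in WT and -0.78, -0.02, 0.13 and -0.17 in KO. Each of KO replicates 2, 3 and 4 lay above all WT mice, while KO replicate 1 lay below WT replicates 2, 3 and 4. The means were -0.91 ± 0.62 and -0.21 ± 0.40 (SD, n = 4 each), a difference of 0.70 or 1.62-fold, with a 95% confidence interval from -0.03 to 1.43 (limma adjusted p = 0.393). An exact permutation test over the 70 assignments of the mice gave a two-sided p = 0.114. With 1 mouse left out in turn the difference lay between 0.40 and 0.89, lowest without WT replicate 1. With the replicate number as a block this probe was called (limma adjusted p = 0.0992), but the numbers were not taken as pairs. The second *Per3* probe was well above background in 2 WT and 3 KO mice and was not tested.

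*Per1* gave 2.40, 2.45, 3.14 and 3.36 in WT and 2.52, 2.81, 3.00 and 3.66 in KO. The genotypes spanned nearly the same range, with replicate 4 highest and replicate 1 lowest in each. The difference was 0.16 (standard error 0.30, limma adjusted p = 0.857). *Per2* gave 2.05, 2.02, 2.24 and 0.77 in WT and 1.92, 2.21, 2.38 and 1.88 in KO, so that WT replicate 4 stood apart from the other 7 livers. Its difference of 0.33 (standard error 0.31, limma adjusted p = 0.706) became -0.01 without that mouse. A dimmer *Per2* probe, at -2.83 to -2.48 in WT and -2.74 to -2.25 in KO, did not have the low value in WT replicate 4, and the 2 probes had a Pearson r of -0.15 over the 8 mice, given as a description.

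The cryptochromes, the stronger repressors of the PER and CRY complex, did not separate the genotypes either. *Cry1* gave -3.77, -3.57, -3.29 and -3.65 in WT and -4.00, -3.58, -3.39 and -3.83 in KO, close to background, with KO replicate 1 not well above it. Its difference was -0.13 (standard error 0.15, limma adjusted p = 0.772). *Cry2* gave 3.09, 3.86, 4.08 and 3.74 in WT and 3.48, 3.54, 3.83 and 3.80 in KO, with WT replicate 1 the lowest liver. Its difference was -0.03 (standard error 0.20, limma adjusted p = 0.963), the smallest of the members.

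The REV-ERB genes encode heme-binding repressors that also hold down lipid genes in liver. *Nr1d1* gave 1.38, 1.77, 1.89 and 2.07 in WT and 1.56, 1.40, 1.14 and 1.89 in KO, lowest in KO replicate 3. Its SD was 0.29 in WT and 0.32 in KO (n = 4 each), and its difference was -0.28 with a confidence interval from -0.72 to 0.16 (limma adjusted p = 0.586). *Nr1d2* gave 1.60, 1.95, 2.03 and 2.39 in WT and 1.99, 2.24, 2.20 and 2.07 in KO, so the WT mice spread around the KO mice. Its 2 probes differed by 0.13 and 0.14 (limma adjusted p = 0.772 and 0.665) and followed each other over the mice with r = 0.87.

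**Figure D2:**
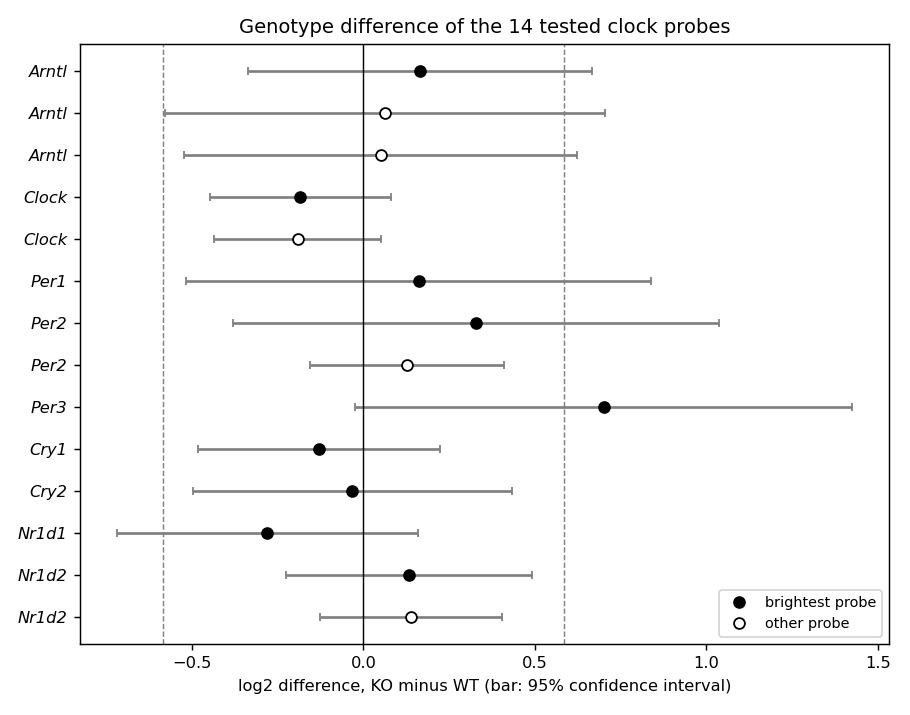
Difference of the mean log2 signal, KO minus WT (horizontal axis), of the 14 tested clock probes, 4 mice per genotype, with 95% confidence intervals from limma. Dashed lines mark a 1.5-fold change. Every interval includes 0, and *Per3*, at 0.70, lies farthest from it.

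The spread between mice of one genotype was large for the period genes. The residual SD (within genotype, log2) was 0.52 for *Per3*, 0.51 for *Per2*, 0.48 for *Per1*, 0.35 for *Arntl*, 0.33 for *Cry2*, 0.31 for *Nr1d1*, 0.24 for *Nr1d2*, 0.24 for *Cry1* and 0.17 for *Clock*. Because dim probes vary more, each was also placed among the tested probes whose mean signal was within 0.5 of its own. In that company *Per1* and *Per2* were more variable than 98.2% and 98.1% of probes, *Per3* than 96.9%, *Cry2* than 92.6%, *Nr1d1* than 90.8%, *Arntl* than 89.0%, *Nr1d2* than 85.8% and *Clock* than 71.0%. *Cry1*, at the dim end, was more variable than 26.2%. The value for *Per2* rests on WT replicate 4, and its dimmer probe was more variable than 24.1% of its neighbors. Over the 8 livers *Per3* ranged 3.85-fold, *Per2* 3.06-fold and *Per1* 2.40-fold, against 1.45-fold for *Clock*. The clock targets *Dbp* and *Ciart* were of the same kind, above 98.1% and 99.3% of probes of like signal.

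**Figure D3:**
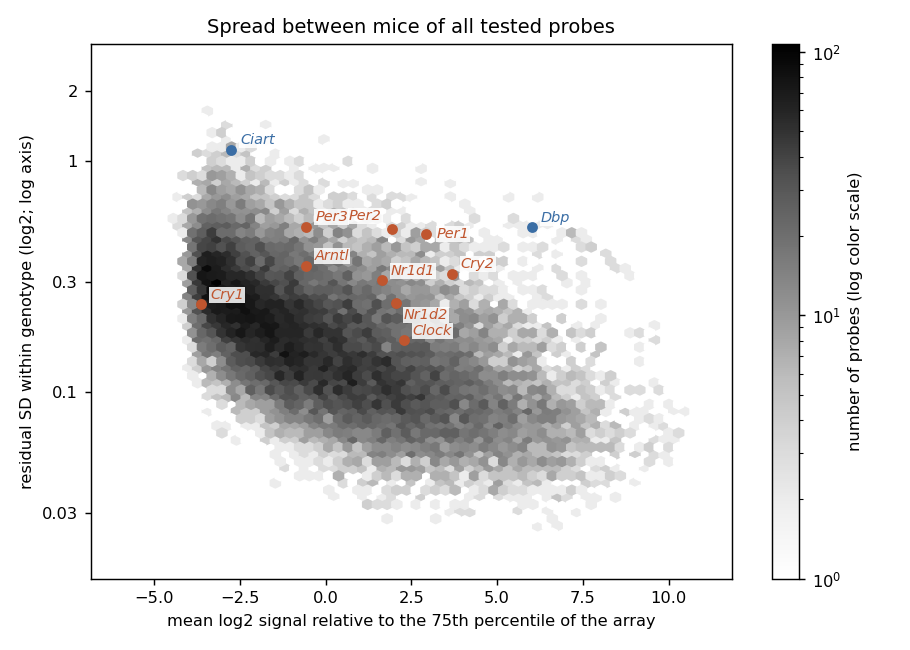
Residual SD within genotype (vertical, log axis) against the mean log2 signal (horizontal) of the 29065 tested probes, shown as a density with darker gray for more probes. The 9 tested clock genes (orange) and their targets *Dbp* and *Ciart* (blue) are marked at their brightest probe. *Per1*, *Per2*, *Per3*, *Dbp* and *Ciart* lie near the upper edge, and *Cry1* lies within the cloud.

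Differences between mice ran through several clock genes at once, and they did so in both genotypes. *Dbp*, an output factor driven directly by the CLOCK and ARNTL pair, gave 5.10, 6.24, 6.52 and 5.99 in WT and 5.56, 6.09, 6.53 and 6.05 in KO, with replicate 1 lowest and replicate 3 highest in each and a genotype difference of 0.09 (limma adjusted p = 0.927). *Tef*, its relative, gave 5.47, 5.91, 6.15 and 5.89 in WT and 5.47, 6.02, 6.13 and 5.97 in KO, with the same mice lowest and highest. *Nfil3*, the D-box repressor, was highest in replicate 1 of each genotype, at 3.26 in WT and 3.11 in KO, against 2.32 to 2.81 in the other mice.

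At the brightest probes, replicate 1 was lowest within WT for *Per1*, *Per3*, *Cry1*, *Cry2* and *Nr1d2* and highest for *Arntl* and *Clock*. The same held within KO. That is 7 of the 9 tested members, against 23.7% of 29047 tested probes with a value on all arrays for which replicate 1 was lowest in both genotypes or highest in both. Replicate 3 was so placed for 5 of 9 members (*Clock*, *Per2*, *Per3*, *Cry1* and *Cry2*) and 12.7% of probes, replicate 4 for 3 of 9 (*Per1*, *Per2* and *Nr1d1*) and 22.8%, and replicate 2 for 0 of 9 and 8.29%. The members are not independent of each other, and the count was made after their values had been seen. At 1 dimmer *Arntl* probe WT replicate 2 was the highest WT mouse, at -2.43 against -2.96 in replicate 1. At the second *Clock* probe KO replicate 3 was the highest KO mouse, at 0.29 against 0.27 in replicate 1. The dimmest *Arntl* probe and the second *Nr1d2* probe had replicate 1 at the same end as the brightest probe in both genotypes. WT replicate 1 was also the lowest or highest of all 8 livers for 32.9% of tested probes, WT replicate 4 for 34.0% and KO replicate 3 for 31.4%, against 18.1% to 24.2% for the other mice. The slide column follows the same numbers, and its part in the result was not tested.

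**Figure D4:**
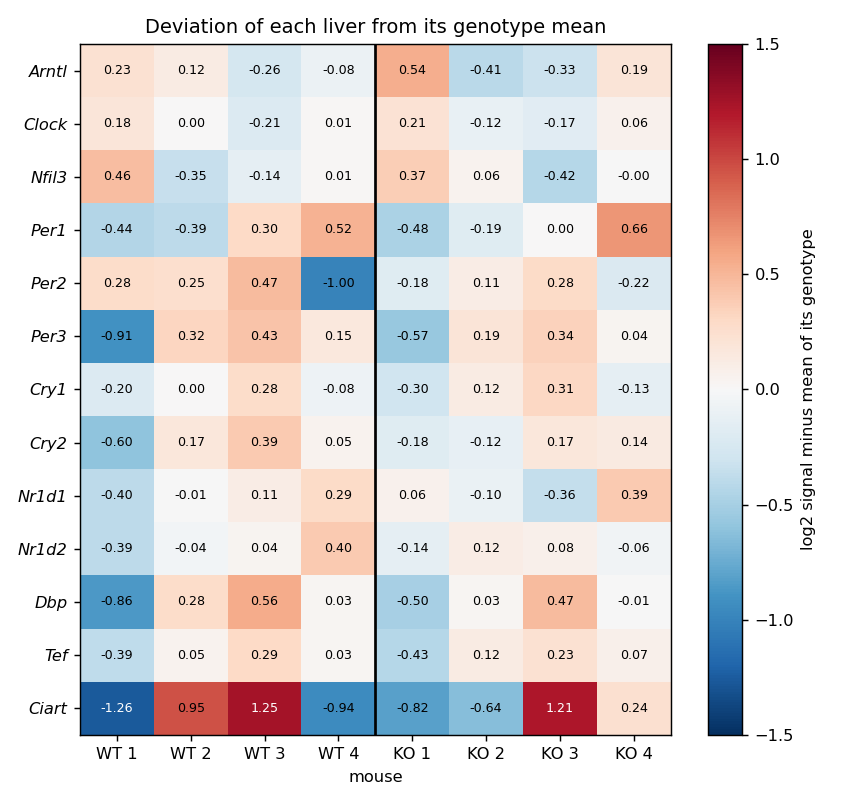
Log2 signal of each liver minus the mean of its genotype (color and printed value) for 9 clock genes and for *Nfil3*, *Dbp*, *Tef* and *Ciart*, with genes in rows and the 8 mice in columns. *Arntl*, *Clock* and *Nfil3* are above their mean in replicate 1 of both genotypes, and *Per1*, *Per3*, *Cry1*, *Cry2*, *Nr1d2*, *Dbp*, *Tef* and *Ciart* are below it.

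*Ciart* varied widely, with -3.73, -1.52, -1.22 and -3.41 in WT and -3.86, -3.68, -1.83 and -2.80 in KO. The WT mice fell into 2 high and 2 low livers, and KO replicate 3 was the highest KO mouse. Its residual SD was 1.12, and its difference of -0.57 had a confidence interval from -2.12 to 0.97 (limma adjusted p = 0.771). On 1 KO array the probe was not well above background.

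The phase relations of the loop were examined as correlations over the 8 mice for 12 pairs with a known relation in the feedback scheme. The pair of *Arntl* and *Npas2* could not be computed, and of the other 11 pairs 0 passed an adjusted p of 0.05 and 0 an unadjusted p of 0.05 (exact permutation over 40320 pairings, two-sided, Benjamini-Hochberg over the 11). *Arntl* and *Dbp*, which peak at opposite times, had r = -0.63 (exact permutation p = 0.0901, adjusted p = 0.584) and Spearman's rho = -0.69 (exact permutation p = 0.0694). Without the 2 mice farthest from the median of *Arntl*, r was -0.74 (exact permutation p = 0.0736). In the residuals of a replicate block the sign changed, with r = 0.79, given without a test. *Arntl* and *Clock*, the 2 partners, had r = 0.62 (exact permutation p = 0.106, adjusted p = 0.584) and rho = 0.69 (exact permutation p = 0.0694). With the genotype means removed, and the mice permuted within genotype, r was 0.92 (exact permutation p = 0.00694, adjusted p = 0.0668), and without KO replicates 1 and 4 it was 0.87 (exact permutation p = 0.0292, adjusted p = 0.222).

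For the REV-ERB limb r lay between -0.07 and 0.26 over the 8 mice and moved with single mice. *Arntl* and *Nr1d1*, a target and its repressor, had r = 0.05 (exact permutation p = 0.913) and rho = 0.07. *Cry1* and *Nr1d1* had r = -0.07 (exact permutation p = 0.868). *Nr1d1* and *Nr1d2*, which usually cycle together, had r = 0.26 (exact permutation p = 0.555), and *Nr1d1* had r = 0.14 with *Dbp* and with *Ciart* (exact permutation p = 0.738 and 0.728). Without WT replicate 4 and KO replicate 3, the mice farthest from the median of *Nr1d1*, r was 0.71 with *Dbp* (exact permutation p = 0.129), 0.80 with *Ciart* (exact permutation p = 0.0806) and 0.27 with *Nr1d2* (exact permutation p = 0.653). Without KO replicate 3 alone it was 0.60, 0.50 and 0.55. *Arntl* and *Per3* had r = -0.39 (exact permutation p = 0.351), which was -0.72 with the genotype means removed (exact permutation p = 0.0122, adjusted p = 0.0668). In the residuals of a replicate block their r was 0.58, with the sign changed, given without a test. The remaining pairs, *Arntl* with *Per2*, *Per1* with *Per2* and *Per2* with *Per3*, lay between -0.36 and 0.26.

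All 45 pairs of the 9 tested members and *Dbp* were then computed, a choice made after the values had been seen. Of these, 3 passed an adjusted p of 0.05. All pairs were read at the brightest probe of each gene. The brightest *Arntl* probe had r = 0.68 and 0.88 with the 2 dimmer ones over the 8 mice, given as a description. Between the 2 tested *Clock* probes r was 0.54. The permutation treats the mice as independent. Same-numbered mice shared a slide column, and those of replicates 1 and 4 deviated together over all tested probes (r = 0.33 and 0.32). The p-values do not account for this, and the 3 pairs were not computed with a replicate block. *Clock* and *Per3* had r = -0.91 (exact permutation p = 0.000719, adjusted p = 0.0316) and rho = -0.98 (exact permutation p = 0.000397, adjusted p = 0.0179). This held without the 2 mice farthest from the median of *Clock*, WT replicate 1 and KO replicate 3, at r = -0.86 (exact permutation p = 0.0333), and with the genotype means removed, at r = -0.87 (exact permutation p = 0.00174, adjusted p = 0.0260). Left out singly, the mice gave r between -0.93 and -0.89.

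*Cry2* and *Dbp* had r = 0.92 (exact permutation p = 0.00156, adjusted p = 0.0316) and rho = 0.86 (exact permutation p = 0.0107, adjusted p = 0.0964). Without WT replicates 1 and 3 r was 0.74 (exact permutation p = 0.0722), which does not pass the threshold over the 6 mice left, and with 1 mouse left out in turn it lay between 0.81 and 0.95. With the genotype means removed it was 0.94 (exact permutation p = 0.00347, adjusted p = 0.0391). *Arntl* and *Cry1* had r = -0.90 (exact permutation p = 0.00211, adjusted p = 0.0316) and rho = -0.88 (exact permutation p = 0.00724, adjusted p = 0.0964). Without KO replicates 1 and 4 r was -0.73 (exact permutation p = 0.106), again not past it, and with 1 mouse left out it lay between -0.94 and -0.83. With the genotype means removed it was -0.89 (exact permutation p = 0.0191, adjusted p = 0.0859). The *Cry1* signal was close to background in all mice. It was not well above it in KO replicate 1, the liver with the highest *Arntl* signal. With the genotype means removed 4 of all 45 pairs passed, *Clock* with *Per3*, *Cry2* with *Dbp*, *Clock* with *Cry1* and *Per3* with *Dbp*. *Clock* and *Cry1* had r = -0.63 (exact permutation p = 0.0971, adjusted p = 0.309) and r = -0.98 with the means removed (exact permutation p = 0.00174, adjusted p = 0.0260). *Per3* and *Dbp* had r = 0.83 (exact permutation p = 0.0131, adjusted p = 0.131) and r = 0.97 with the genotype means removed (exact permutation p = 0.00174, adjusted p = 0.0260). Without WT replicate 1 and KO replicate 3, and with the genotype means left in, their r was 0.32 (exact permutation p = 0.551). With 1 mouse left out it lay between 0.53 and 0.89. Within WT their r was 0.99 and within KO 0.95, given without a test.

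**Figure D5:**
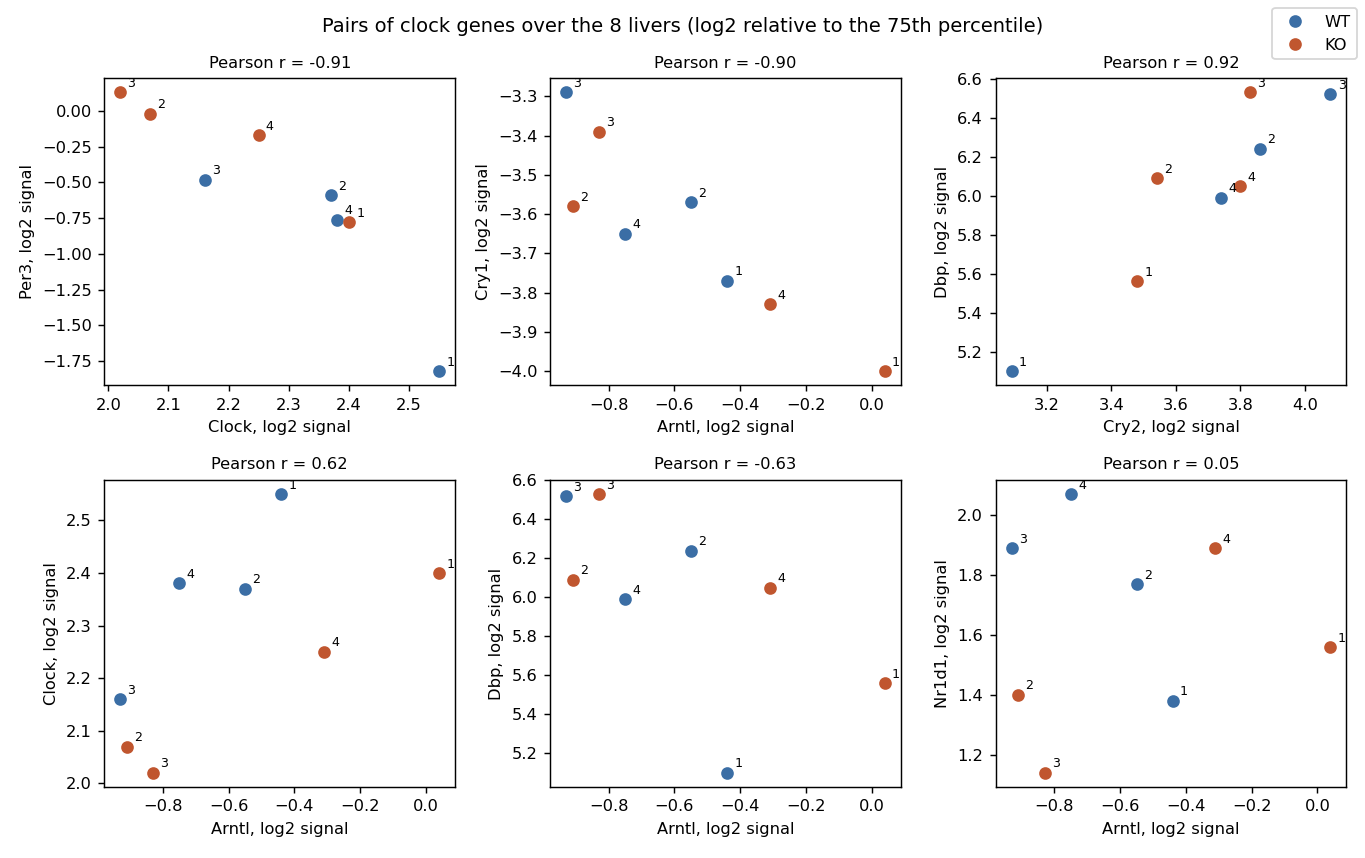
Log2 signals of 6 pairs of clock genes against each other over 4 WT (blue) and 4 KO (orange) livers, with replicate numbers beside the points and Pearson r over the 8 mice above each panel. The upper row shows the 3 pairs that passed among all 45, with r of -0.91, -0.90 and 0.92, and the lower row 3 of the 11 pairs of the feedback scheme, with r of 0.62, -0.63 and 0.05.

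The genes around the loop were counted by list at their brightest probe. Of 12 genes of the auxiliary loops and clock output factors 10 were tested, and of 10 genes for the kinases and turnover of clock proteins 10 were tested, with 0 called in each and 0 and 1 at an unadjusted p under 0.05 (limma). Over all 14061 tested genes, read the same way, 1.76% were called and 14% had an unadjusted p under 0.05. Of 12 genes with known rhythmic output 0 were called and 3 had an unadjusted p under 0.05 (limma). Of these, *Noct* and *Wee1* were named after their values had been seen. *Noct* (nocturnin) was at 1.75 to 2.52 in WT and 2.55 to 3.46 in KO, a difference of 0.69 (limma adjusted p = 0.263). *Wee1*, a cell cycle kinase gene under clock control, was at -1.80 to -0.69 in WT and -0.71 to -0.05 in KO, a difference of 0.67 (limma adjusted p = 0.295). *Elovl3*, a rhythmic fatty acid elongase gene, was at 5.60 to 6.24 in WT and 3.96 to 5.70 in KO, a difference of -0.98 (limma adjusted p = 0.280).

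Lists of signals that can set or shift the liver clock were read in the same way. Of 12 feeding state genes, 8 body temperature and heat shock genes and 7 immediate early genes, all tested, 0 were called, and 2, 0 and 1 of them had an unadjusted p under 0.05 (limma). Of 7 glucocorticoid-responsive genes, 2 were called lower in KO, *Mt1* and *Mt2*, against 0.754% of all tested genes. They encode metal-binding metallothioneins and also respond to zinc and inflammation. *Mt1* was at 3.83 to 6.09 in WT and 2.18 to 3.83 in KO, a difference of -1.97 (limma adjusted p = 0.157), but its dimmer probe, at -0.80 (limma adjusted p = 0.749), was not called. *Mt2* was at 1.84 to 4.61 in WT and 0.82 to 2.01 in KO, a difference of -2.09 (limma adjusted p = 0.193). *Rbm3*, a cold-induced RNA-binding protein gene, was called higher at the dimmest of its 4 probes, by 0.79 (limma adjusted p = 0.0882), and its 3 brighter probes differed by 0.14, 0.22 and 0.27 without being called. Within the lists, *Fos*, an immediate early gene, ranged 19.1-fold over the 8 livers, and the fasting-induced genes *Fgf21* and *Igfbp1* ranged 10.1-fold and 8.87-fold.

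Some of the most variable genes of these lists had the same replicate number lowest, or highest, in both genotypes. Over all tested probes this held for 23.7%, 8.29%, 12.7% and 22.8% at replicates 1, 2, 3 and 4. It did not hold at any number for *Hspa1a*, *Egr1*, *Fgf21* and *Atf3*. The genes below were picked after their values had been seen and were not counted against these shares. *Cirbp*, which like *Rbm3* rises in the cold, was highest in replicate 4 of each genotype, at 2.60 in both, against 0.72 to 1.85 in the other mice. *Hsph1*, a heat shock chaperone gene, was at 3.08 in WT replicate 4 and 3.75 in KO replicate 4, the lowest of each genotype, against 3.82 to 4.83 in the others. *Cyp7a1*, the rate-limiting enzyme of bile acid synthesis, was highest in replicate 1 of each genotype, at 2.75 in WT and 2.23 in KO, against 0.84 to 2.07 in the others. *Usp2*, a rhythmic deubiquitinase gene, was lowest in replicate 1 of each, at 0.49 and 0.80, and highest in replicate 3, at 2.15 and 2.20.

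The genes whose signals were most like those of *Nr1d1* over the 8 mice were *Xpa* (Pearson r = 0.97), *Tll1* (0.95), *1700020L24Rik* (0.95), *Ints6l* (0.95) and *1700064F23Rik* (0.95). For *Arntl* they were *Trp53bp1* (r = 0.98), *Cr2* (0.92), *Fmn2* (0.92), *Fcmr* (0.92) and *Syt3* (0.92). These are the highest among the named genes on 29047 probes over 8 mice, with probes without a symbol left out. They are given as a description, and no clock gene was among them.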

How the data were processed

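The authors hybridized liver RNA to 1-color Agilent arrays and deposited, per the file headers, spot intensities from Feature Extraction 10.7.1.1, background-corrected on a linear scale. They also deposited log2 values for all arrays, which matched the log2 intensity minus the 75th percentile of the array within 0.01 for 99.9% or more of probes. Here control and outlier spots were removed, spots of a probe were averaged, and a probe entered the test if every array of one genotype or the other had it well above background, which kept 29065 of 56605. Genotypes were compared with limma 3.58.1 in R 4.3.3, using lmFit and eBayes with a 95% confidence interval. The test was tried on simulated data. Symbols came from RefSeq transcript accessions (GRCm38.p6) and named 32989 probes. A gene was read at its brightest tested probe.

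Correlations over mice used exact permutation. Nothing states separate litters or extraction days, so p-values measure the spread between these samples. Arrays have no read depth, and their number limits the precision.

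The members, gene lists and pairs were chosen with earlier results of these data known. Named genes were all members, *Agpat3*, *Dbp*, *Ciart*, the called and the 3 most variable genes of each list, and the 5 genes most like *Nr1d1* and *Arntl*. *Tef*, *Noct* and *Wee1*, and the dimmer probes of *Rbm3*, were named after their values were seen. Alternatives were normexp with an offset of 50, quantile, median and deposited scaling, other filters, thresholds and tests, a replicate block, and each array left out.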

Additional observations from a re-analysis of the deposited data

Results flagged for a closer look

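In groups of 4 mice, a mouse was marked where its gap to the nearest other mouse, as a share of the range of its group, was over Dixon's 95% critical value, which chance gives in about 1 of 20 groups. Of the 84 groups examined, from the clock members and the other named genes in each genotype, 6 held such a mouse, and over all tested probes 5.97% of groups did.

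Among the clock members, *Npas2* was at -1.38 in WT replicate 1 (log2 over the upper quartile of the array), against -6.10 to -5.61 in the other WT mice, none of them well above background. *Per2* was at 0.77 in WT replicate 4, against 2.02 to 2.24 in the other WT mice, and its dimmer probe did not show this. *Noct*, a rhythmic gene, was at 1.75 in WT replicate 2, against 2.46 to 2.52.

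*Alas1*, the first enzyme of heme synthesis, was at 8.77 in WT replicate 1, against 6.85 to 7.11. *Hsph1*, a heat shock chaperone gene, was at 3.08 in WT replicate 4, against 4.66 to 4.70. *G6pc*, the glucose-6-phosphatase gene, was at 5.69 in KO replicate 3, against 7.30 to 7.52.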

How the results depend on the processing

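The count of called clock probes stayed at 0 under every alternative run but 2. It was 1, the brightest *Per3* probe, with the replicate block (difference 0.70, limma adjusted p = 0.0992), and 1 with an unadjusted p under 0.2, chosen after seeing the data. Deviations of same-numbered mice had r = 0.33, 0.10 and 0.32 for replicates 1, 3 and 4 and -0.11 for replicate 2, over 29047 probes. Mice with different numbers gave r from -0.27 to 0.27, highest for WT replicate 2 with KO replicate 3. Only replicates 1 and 4 lay above that range, so the numbers were not taken as pairs. Over all probes the block called 592 against 484. Over all probes the calls, 273 higher and 211 lower, became 182 and 67 under normexp with quantile normalization and 122 and 131 without a filter on dim probes, 165 and 104 in an unpaired test without moderation, the kind the study's legend names for other panels, and between 257 and 645 in all with 1 mouse left out.

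With 1 mouse left out, the differences ran from -0.017 to 0.30 for *Arntl*, from -0.060 to 0.33 for *Per1*, from -0.0065 to 0.48 for *Per2* and from -0.23 to 0.10 for *Cry2*, which changes their sign. The differences of the other 5 members kept their direction under all alternatives run for them, and *Cry1* had no value with a filter on all 8 arrays. The residual SD of *Cry1* was 0.09 under normexp against 0.24.

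Of the 11 pairs 0 passed under any alternative that gave a p (the filter on all 8 arrays left 9 pairs, and the replicate block gave r alone), and with all 45 pairs 3 passed. The sign of r changed in these cases. For *Arntl* and *Nr1d1* r was -0.050 with median scaling, -0.10 with the mean of the tested probes and -0.045 without the 2 mice farthest from the median, and for *Cry1* and *Nr1d1* it was 0.0086 with median scaling. Spearman's rho for *Nr1d1* and *Dbp* was -0.12. In the residuals of the replicate block r was 0.79 for *Arntl* and *Dbp* (-0.63 without it), 0.26 for *Arntl* and *Per2*, 0.58 for *Arntl* and *Per3*, 0.44 for *Per1* and *Per2* and -0.55 for *Per2* and *Per3*. With 1 mouse left out r ran from -0.19 to 0.20 for *Arntl* and *Nr1d1*, from -0.86 to 0.014 for *Arntl* and *Per2*, from -0.34 to 0.29 for *Cry1* and *Nr1d1*, from -0.084 to 0.55 for *Nr1d1* and *Nr1d2*, from -0.18 to 0.60 for *Nr1d1* and *Dbp*, from -0.047 to 0.50 for *Nr1d1* and *Ciart* and from -0.44 to 0.026 for *Per1* and *Per2*. The cause was not tested. Signals close to background limit *Cry1*, *Ciart* and *Npas2*.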
